A study of Homo sapiens with 31 samples.

Results

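The genes described here are 6 markers of DUX4-rearranged B-cell acute lymphoblastic leukemia (ALL), namely ERG, PTPRM, STAP1, AGAP1, CLEC12A and GPR155, in the pre-B-ALL cell line NALM-6. They were taken as the rows of the deposited count table whose Ensembl identifiers carry these symbols, which gave 6 of 30667 rows, by name and not by a level or a test. In this subtype a translocation places the double-homeobox gene DUX4 next to the immunoglobulin heavy chain locus (IGH), so that B-cell precursors, which normally keep DUX4 silent, transcribe a form of it that is usually truncated at its C-terminal end. Leukemias with this fusion share an expression profile by which the subtype is recognised, and NALM-6 carries such a fusion. The 6 genes belong to that profile or mark these cells on the surface.

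NALM-6 cells were transduced with 1 of 4 lentiviral vectors, each with an shRNA in a miR30 backbone that is expressed together with a fluorescent marker, and were sampled 4, 10 and 13 days later. The vectors were EF1a/sh-CTRL (9 libraries), EF1a/sh-XIAP (7), SFFV/sh-CTRL (7) and SFFV/sh-XIAP (8), where EF1a and SFFV are the promoters that drive the shRNA and sh-CTRL is the control shRNA. The study calls the knockdown (KD) of XIAP, an inhibitor of caspases, moderate where EF1a drives the shRNA and strong where SFFV does, and the question was what either does to the transcriptome. The labels of the single libraries have the cells kept in culture, whereas the general description has them taken from mouse bone marrow. All libraries therefore share the NALM-6 background and the transduction with a lentiviral vector, no untransduced cells were analysed, and everything below describes 1 cell line.

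RNA was sequenced by prime-seq, which tags the 3′ end of each transcript with a unique molecular identifier (UMI), so that each UMI stands for 1 captured molecule and levels need no correction for gene length. Each of the 12 combinations of vector and day had 2 or 3 libraries. Total UMIs ran from 312852 to 1153668 per library (median 603822), and by day the median was 751952.5 at day 4, 482267 at day 10 and 603822 at day 13. Levels are given as CPM, UMIs scaled to a library total of 1000000, and a count of 0 still allows up to 9.59 CPM in the smallest library. XIAP itself was thinly counted, at 2 to 14 UMIs per library. For the SFFV vectors at days 10 and 13, XIAP measured 8.86 ± 3.06 CPM (SD) over 6 sh-XIAP libraries against 10.2 ± 4.72 over 4 sh-CTRL libraries. For the EF1a vectors these values were 9.62 ± 1.45 (n = 5) against 10.8 ± 4.67 (n = 6). The fitted log2 changes were −0.26 ± 0.40 (SE) with strong KD and −0.17 ± 0.37 with moderate KD. Neither passed limma-voom (adjusted p = 0.975 and 0.994), so a knockdown was not seen in these few RNA counts. The study measured its degree on protein, which these counts do not show. The 10 B-precursor markers were present in every library at a summed 4196 to 4819 CPM. T-cell markers summed to 4.15 to 25.6 CPM, of which the row TRAC made up 200 of 227 UMIs, myeloid markers to 0 to 25.6 CPM and erythroid markers to 0 to 5.29 CPM. These sums cover only markers with a row, which 4 of 7 T-cell, 2 of 8 myeloid and 3 of 6 erythroid markers lacked. In bulk RNA, fewer cells that transcribe a gene and less RNA per cell cannot be told apart.

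The members differ in what their proteins do. ERG is a transcription factor of the ETS family, and leukemias with this fusion often use an inner ERG start site that yields a shortened protein. STAP1 is an adaptor with a pleckstrin homology and an SH2 domain that works downstream of the B-cell receptor. AGAP1 is a GTPase-activating protein for Arf GTPases in endosomal traffic, and GPR155 is a lysosomal membrane protein that senses cholesterol. CLEC12A (CD371) is an inhibitory C-type lectin receptor, best known from myeloid cells and used in flow cytometry to recognise this leukemia, and PTPRM is a receptor-type tyrosine phosphatase that mediates adhesion between like cells.

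In GENCODE 29, on GRCh38, ERG (ENSG00000157554) lies at chr21:38380027-38661780 on the minus strand and PTPRM (ENSG00000173482) at chr18:7566782-8406861 on the plus strand. STAP1 (ENSG00000035720) lies at chr4:67558728-67607337 on the plus strand and AGAP1 (ENSG00000157985) at chr2:235494089-236131800 on the plus strand. CLEC12A (ENSG00000172322) lies at chr12:9951316-9995694 on the plus strand and GPR155 (ENSG00000163328) at chr2:174431571-174487094 on the minus strand. All 6 are protein-coding genes. The counts are per gene and come from the 3′ end, so transcripts from different start sites of ERG or PTPRM were not separated.

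Homeodomains of the kind DUX4 carries read cores of the form TAAT, so the bases before the start of 3 members are shown with this core in capitals, which differ in how many they hold. They were read from RefSeq on GRCh38.p14, 250 bases 5′ to 3′ on the gene's strand, and capitals mark TAAT on either strand (printed as TAAT or ATTA, overlaps allowed).
STAP1, plus strand, chr4:67558477-67558726: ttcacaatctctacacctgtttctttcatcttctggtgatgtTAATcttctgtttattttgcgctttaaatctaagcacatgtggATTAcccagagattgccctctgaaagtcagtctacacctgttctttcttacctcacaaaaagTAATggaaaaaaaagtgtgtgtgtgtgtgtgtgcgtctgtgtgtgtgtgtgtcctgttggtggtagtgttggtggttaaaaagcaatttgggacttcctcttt
ERG, 1 of 3 starts inside the gene, minus strand, chr21:38584946-38585195: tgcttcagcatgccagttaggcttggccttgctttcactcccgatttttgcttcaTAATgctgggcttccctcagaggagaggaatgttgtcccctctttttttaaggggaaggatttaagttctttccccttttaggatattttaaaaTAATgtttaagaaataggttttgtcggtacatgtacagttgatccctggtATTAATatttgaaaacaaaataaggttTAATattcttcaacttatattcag
CLEC12A, plus strand, chr12:9971159-9971408: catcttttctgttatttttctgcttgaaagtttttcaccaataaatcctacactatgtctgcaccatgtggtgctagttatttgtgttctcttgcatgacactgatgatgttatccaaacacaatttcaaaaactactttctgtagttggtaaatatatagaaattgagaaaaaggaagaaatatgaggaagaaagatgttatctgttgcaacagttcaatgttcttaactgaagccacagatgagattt

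The STAP1 stretch holds 3 cores, the ERG stretch 5 and the CLEC12A stretch 0. Like the ERG stretch, the CLEC12A stretch lies inside the gene as placed above, before an inner start. Windows of 300 bases (250 before and 50 after the start) were held for 4 of the 6 members, 8 windows in all, of which ERG had 4 and PTPRM 2. The most upstream ERG and PTPRM windows had 0 cores and the remaining ones 2 each. These most upstream windows also fall within the genes as placed above, and the 3 inner ERG starts are those downstream of the first. Of the remaining windows, the 2 of ERG overlap and hold the same 2 cores. Of 35116 such windows over all genes, 50.2% held at least 1 core. The windows of the printed stretches had 39.7% (STAP1), 38.7% (ERG) and 34.0% (CLEC12A) GC, against a median of 58.7% over all windows. As the core holds only A and T, that share is not matched to them in base composition. A longer string associated with DUX4, TAANNNAATCA on either strand, was in 0 of the 8 members' windows and in 0.888% of all windows. Such matches are a description of letters, not of binding, and which ERG start these cells use, or which one yields the shortened protein, was not examined.

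All 6 markers were detected in every one of the 31 libraries, and they fell into a higher and a lower tier. The higher tier was STAP1, AGAP1 and ERG. Pooled over all libraries, STAP1 stood at 189 CPM (3884 UMIs), AGAP1 at 160.2 CPM (3291 UMIs) and ERG at 148 CPM (3036 UMIs), which ranked them 620th, 799th and 921st among 14952 protein-coding genes in the table. The lower tier was GPR155 at 42.6 CPM (876 UMIs), CLEC12A at 35.3 CPM (725 UMIs) and PTPRM at 27.1 CPM (556 UMIs), ranked 4084th, 4768th and 5730th. In all 31 libraries the lowest of the upper 3 was above the highest of the lower 3.

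Within a tier the order was less fixed. STAP1 exceeded AGAP1 in 27 of 31 libraries and AGAP1 exceeded ERG in 23, with 1 tie. GPR155 exceeded CLEC12A in 24 libraries with 1 tie, and CLEC12A exceeded PTPRM in 23 with 4 ties. Neighbours within a tier overlapped in their ranges: STAP1 ran from 156 to 238 CPM, AGAP1 from 129 to 194, ERG from 118 to 177, GPR155 from 32.2 to 51.8, CLEC12A from 10.7 to 57.2 and PTPRM from 8.04 to 49.5.

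The spread between libraries was close to what counting alone gives for most members. The coefficient of variation was 9.69% for AGAP1, 9.93% for ERG and 11.6% for GPR155, against 10.4%, 10.8% and 20.1% for pure counting at these depths. STAP1 varied by 10.95% against 9.56%, CLEC12A by 25.5% against 22.1%, and PTPRM by 31.8% against 25.3%. Expressed as chi-square per degree of freedom, where 1 is counting error alone, the members ran from 0.408 (GPR155) to 1.35 (STAP1 and PTPRM). Among 5837 genes with a total between those of PTPRM and STAP1, the median was 1.10 and the middle 90% lay between 0.687 and 1.70. GPR155 was thus below that range, its libraries scattering less than counting predicts, and the other 5 members were inside it.

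**Figure D1:**
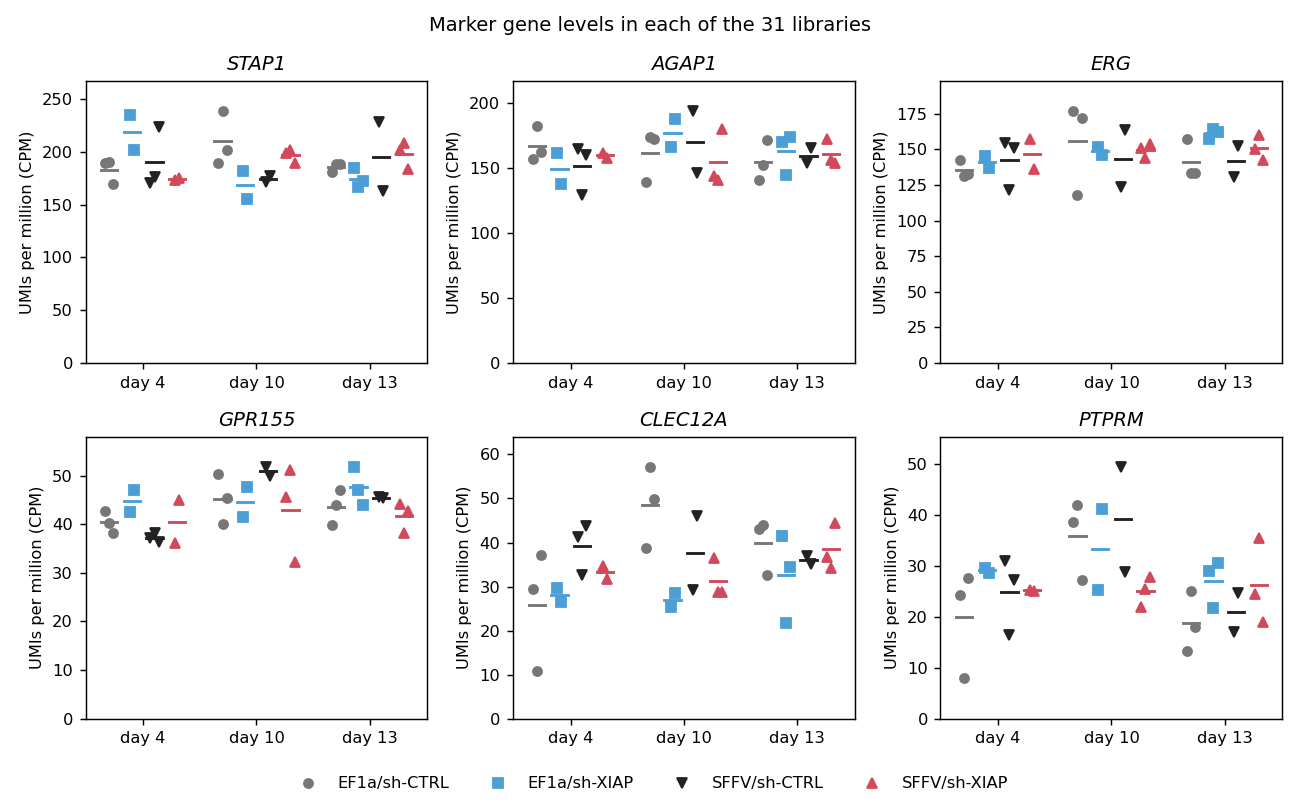
Level of each marker gene in CPM (vertical axis from 0) in each library, by day and construct; points are single libraries and bars are group means. STAP1, AGAP1 and ERG lie above 118 CPM everywhere, and the 2 lowest points of CLEC12A (10.7 CPM) and PTPRM (8.04 CPM) belong to the same EF1a/sh-CTRL library of day 4.

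ERG, the ETS factor, had overlapping levels with all 4 vectors. With EF1a/sh-CTRL it ran from 118 to 177 CPM (median 134, n = 9), under SFFV/sh-CTRL from 122 to 163 (median 151, n = 7), under EF1a/sh-XIAP from 137 to 165 (median 152, n = 7) and under SFFV/sh-XIAP from 136 to 160 (median 151, n = 8). The 2 sh-XIAP ranges lay inside that of EF1a/sh-CTRL. Strong KD at days 10 and 13 gave a log2 fold change of 0.06 ± 0.11 (SE, limma-voom, adjusted p = 0.986) and moderate KD 0.10 ± 0.10 (adjusted p = 0.992).

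AGAP1 gave medians of 162 CPM with EF1a/sh-CTRL, 160.1 under SFFV/sh-CTRL, 166 under EF1a/sh-XIAP and 157 under SFFV/sh-XIAP. Its lowest library (129 CPM) and its highest (194 CPM) were both SFFV/sh-CTRL. The fitted log2 changes were −0.03 ± 0.11 (SE) with strong KD at days 10 and 13 and 0.12 ± 0.10 with moderate KD (limma-voom, adjusted p = 0.993 and 0.992).

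STAP1, the B-cell receptor adaptor, had medians of 189 CPM with EF1a/sh-CTRL, 176 under SFFV/sh-CTRL, 182 under EF1a/sh-XIAP and 194 under SFFV/sh-XIAP. At day 4 the 2 EF1a/sh-XIAP libraries stood at 235 and 202 CPM and the 3 EF1a/sh-CTRL libraries at 189, 190.4 and 169. These groups did not overlap, and the fold was 1.21 (95% interval 1.03 to 1.43), but the adjusted p was 0.976 (limma-voom). At days 10 and 13 the same 2 vectors gave the opposite order in their medians, 173 CPM (range 156 to 184, n = 5) with EF1a/sh-XIAP and 189 (181 to 238, n = 6) with EF1a/sh-CTRL, with a log2 change of −0.17 ± 0.09 (SE, adjusted p = 0.992). Strong KD at those days went with a log2 change of 0.11 ± 0.10 (adjusted p = 0.941), and the difference between strong and moderate KD was 0.28 ± 0.13 (limma-voom, adjusted p = 0.964).

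GPR155, the lysosomal protein, stood at 45.6, 51.1 and 32.2 CPM in the 3 SFFV/sh-XIAP libraries of day 10 and at 44.2, 38.1 and 42.8 at day 13. The SFFV/sh-CTRL libraries stood at 51.8 and 49.97 CPM at day 10 and at 45.6 and 45.4 at day 13. Of the 4 control libraries, 1 lay above the knockdown libraries and the other 3 among them. The fold with strong KD was 0.814 (95% interval 0.639 to 1.04, limma-voom adjusted p = 0.92). With moderate KD it was 1.03 (0.817 to 1.29, adjusted p = 0.997).

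CLEC12A, the surface lectin, showed the largest fitted difference of any member. At days 10 and 13 the EF1a/sh-XIAP libraries stood at 25.3, 28.6, 41.5, 21.7 and 34.3 CPM. The EF1a/sh-CTRL libraries ran from 32.5 to 57.2 CPM (median 43.5, n = 6). The ranges overlapped, in that 2 of the 5 knockdown libraries lay above the lowest control. The fold was 0.709 (95% interval 0.534 to 0.942), and it did not pass the threshold (log2 change −0.50 ± 0.20, SE, limma-voom adjusted p = 0.992). Strong KD gave a fold of 0.914 (0.68 to 1.23, adjusted p = 0.982), and the difference between strong and moderate KD was 0.37 ± 0.29 on the log2 scale (adjusted p = 0.964). Between the control vectors at day 4, SFFV/sh-CTRL stood at 41.2, 32.7 and 43.8 CPM and EF1a/sh-CTRL at 29.5, 10.7 and 37.3, the lowest of which rests on 4 UMIs. That fold was 1.39 (0.964 to 1.999, adjusted p = 0.996).

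PTPRM, the adhesion phosphatase, had the largest fitted difference between days among the members. At day 10 it ran from 21.9 to 49.5 CPM (median 28.3, n = 10), at day 13 from 13.2 to 35.6 (median 24.4, n = 11) and at day 4 from 8.04 to 30.9 (median 26.3, n = 10). All 3 ranges overlapped. Day 13 against day 10 gave a fold of 0.755 (95% interval 0.596 to 0.958, limma-voom adjusted p = 0.982), and the means went from 35.95 to 18.8 CPM with EF1a/sh-CTRL, from 39.2 to 20.9 under SFFV/sh-CTRL, from 33.3 to 27.1 under EF1a/sh-XIAP and from 25.1 to 26.3 under SFFV/sh-XIAP. The mean was therefore lower at day 13 with 3 of the 4 vectors. Day 10 against day 4 gave a fold of 1.26 (0.999 to 1.58), with the lowest adjusted p of any member in any comparison (0.786). With strong KD at days 10 and 13 the fold was 0.865 (0.611 to 1.22, adjusted p = 0.962) and with moderate KD 1.14 (0.817 to 1.58, adjusted p = 0.992).

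Over all comparisons, none of the 6 markers passed the study's threshold of an adjusted p of at most 0.25 (limma-voom, adjusted over all genes tested). The count was 0 of 6 in each of 11 comparisons, and calls were rare among all genes too. At days 10 and 13, strong KD called 0.0792% of 17683 genes, moderate KD 0.017%, the difference between them 0.00566% and the promoter comparison (SFFV/sh-CTRL against EF1a/sh-CTRL) 0.00566%. Day 13 against day 10 called 0.0452%, day 10 against day 4 called 0.26% and day 13 against day 4 called 0.509% of genes. At day 4, strong KD called 0.0109% of 18336 genes, moderate KD 0.0491% and the promoter comparison 0.0164%. A test for any difference among the 12 groups called 0.554% of 17676 genes, and the members' adjusted p there ran from 0.947 to 0.997. With so few calls among all genes, 0 of 6 is near that background. Over the 60 fitted values of the members, 4 had an unadjusted p under 0.05, those of CLEC12A with moderate KD and PTPRM between days 13 and 10, and those of STAP1 with moderate KD at day 4 and for strong minus moderate KD.

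The fitted changes of the members had mixed signs, and none of them was called. With strong KD at days 10 and 13, 2 of the 6 fitted changes were above and 4 below 0 (median −0.08 on the log2 scale, against −0.02 over all genes). With moderate KD 4 were above and 2 below 0 (median 0.07, against 0.01). Day 10 against day 4 had 5 above and 1 below 0 (median 0.10, against −0.00079 over all genes). Across 15 pairs of members, the correlation of log2 CPM over the 31 libraries ran from −0.18 to 0.40 with a median of −0.01, given as a description, since the libraries share depth and culture. As the spread of most members was close to counting error, correlations near 0 cannot show whether the members vary together.

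**Figure D2:**
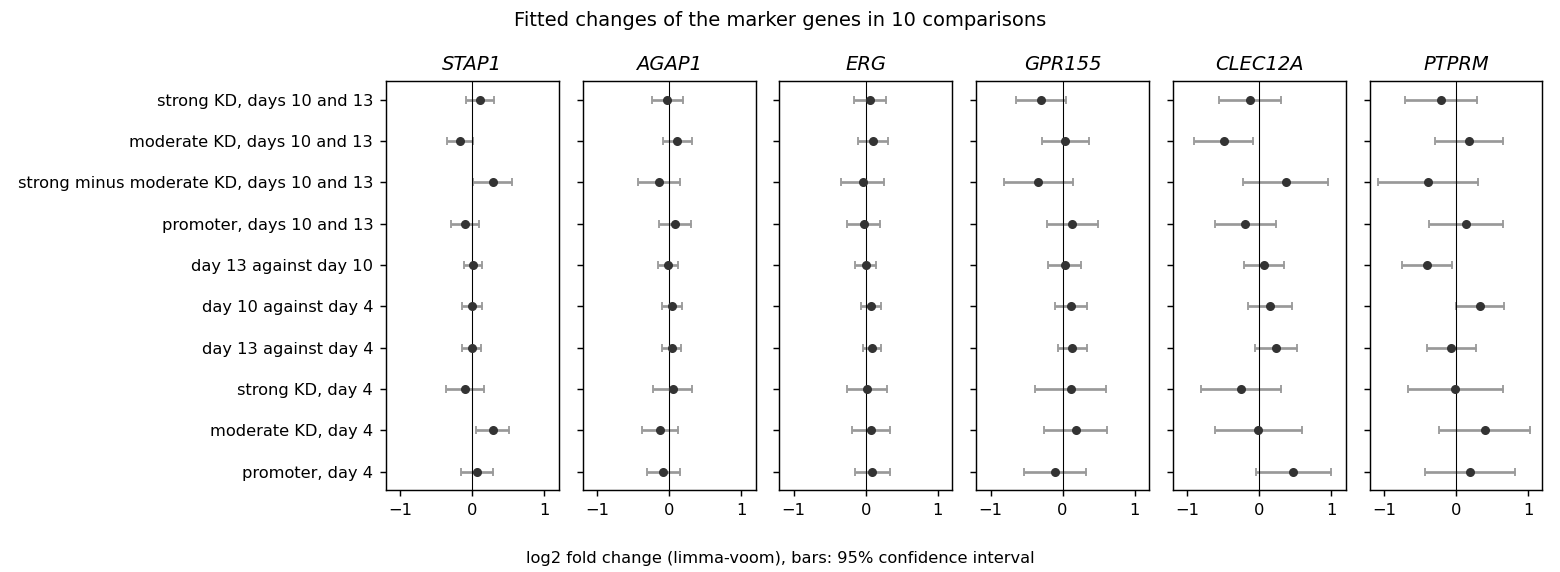
Fitted log2 fold change (horizontal axis, limma-voom) of each marker in 10 comparisons, with 95% confidence intervals. Points lie between −0.50 and 0.47, and intervals are narrow for STAP1, AGAP1 and ERG and wide for CLEC12A and PTPRM.

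The precision set how small a change could be seen. Over the 10 fitted comparisons, the 95% intervals of the fold stayed within 0.787 to 1.26 for ERG, 0.739 to 1.25 for AGAP1 and 0.778 to 1.46 for STAP1. For the less counted members they reached 0.567 to 1.54 for GPR155, 0.534 to 1.999 for CLEC12A and 0.472 to 2.05 for PTPRM. A 2-fold difference in either direction thus lay outside every interval of the higher tier and of GPR155, but at the edge of or inside some intervals of CLEC12A and PTPRM.

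The lowest and highest group means of each member, over the 12 combinations of vector and day, show the same scale. They were 135 and 161 CPM for ERG, 150 and 177 for AGAP1, 169 and 218 for STAP1, 37.2 and 50.9 for GPR155, 25.8 and 48.6 for CLEC12A, and 18.8 and 39.2 for PTPRM. The extremes fell in different groups for different members: EF1a/sh-CTRL at day 4 was lowest for ERG and CLEC12A, and SFFV/sh-CTRL at day 10 was highest for GPR155 and PTPRM. These extremes were picked from the 12 groups and are a description.

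Other genes tied to the subtype were measured as well. Of 8 such genes, 6 were present in every library, the most counted being CHST2, a sulfotransferase, at 295 CPM, above each of the 6 members. DDIT4L stood at 53.1 CPM, CCNJ, a cyclin, at 43.4, LAIR1, an inhibitory receptor, at 31.4, ITGA6, an integrin chain, at 28.9 and CLEC12B, the lectin gene next to CLEC12A, at 6.86. CD2, a surface protein found on some leukemias of this subtype, and PCDH17 had 4 UMIs each in all libraries together. The 6 detected genes were tested, and 0 passed in any of the 11 comparisons.

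DUX4 itself had 1 UMI in all libraries together, in SFFV/sh-XIAP. The table also holds rows for 6 of its copies, all annotated as pseudogenes, the most counted of which was DUX4L7, with 223 UMIs in 30 of 31 libraries (10.9 CPM). DUX4L2 had 49 UMIs, DUX4L9 44, DUX4L26 8, DUX4L4 4 and DUX4L8 0. DUX4L26 is annotated as a processed pseudogene on chromosome 3. The other copies lie on chromosome 4, DUX4L9 on the minus strand and the rest on the plus strand. How alike the copies are was not examined, so which of them, or the fused gene, a UMI came from is uncertain. By vector, DUX4L7 stood at 10.4 CPM with EF1a/sh-CTRL, 9.54 under SFFV/sh-CTRL, 12.2 under EF1a/sh-XIAP and 11.2 under SFFV/sh-XIAP. Of 22 genes known as targets of full-length DUX4 in embryo and muscle, 3 had a row in the table: ZNF296 (205 UMIs), KHDC1L (6 UMIs) and PRAMEF12 (1 UMI). ZNF296 was found in all 31 libraries, at 9.98 CPM. The other 19 had no row, as had 6 of 13 DUX4 symbols looked up. Since rows with 0 UMIs occur (DUX4L8), a missing row cannot be read as a measured 0.

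**Figure D3:**
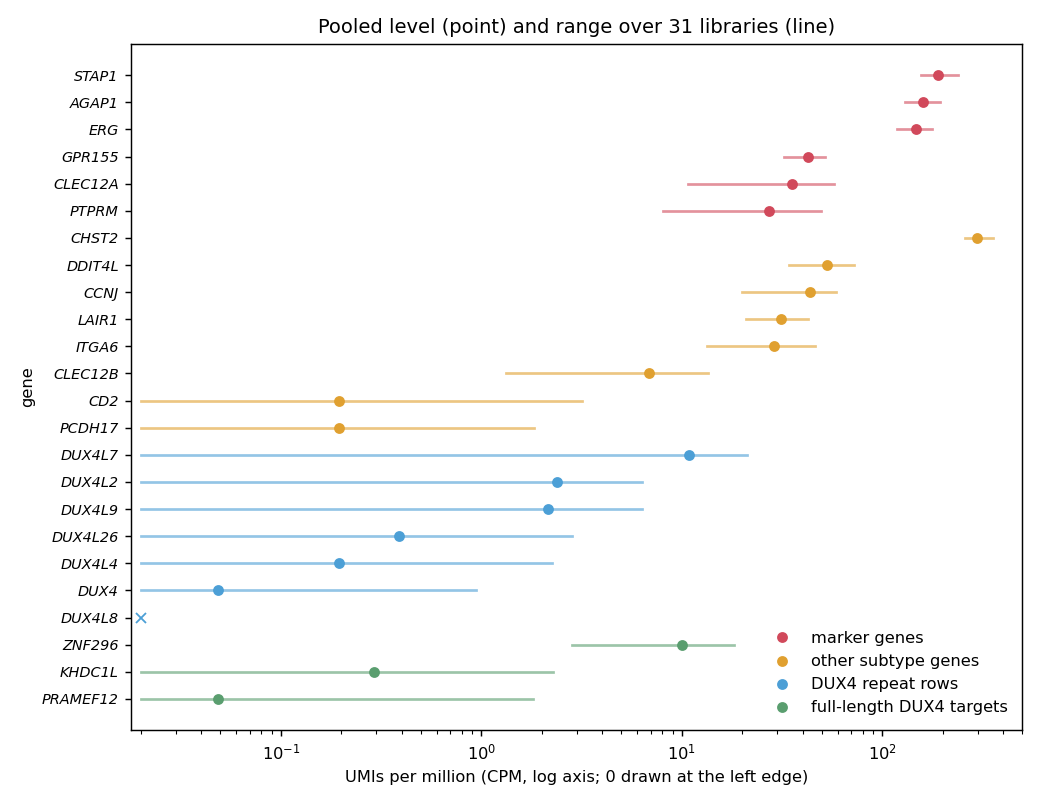
Pooled level (points) and range over the 31 libraries (lines) of the 6 markers, other subtype genes, DUX4 repeat rows and targets of full-length DUX4, in CPM on a log axis. The 6 markers and CHST2, DDIT4L, CCNJ, LAIR1 and ITGA6 lie above 27 CPM, while DUX4 is at 1 UMI in all and its copy DUX4L7 at 10.9 CPM.

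Relatives of the members were counted at very different levels. FLI1, the ETS factor most like ERG, stood at 149 CPM beside 148 for ERG, and these were the most counted of 18 ETS genes with a row. None of the 17 ETS genes tested passed in any comparison, ERG among them. PTPRK, PTPRU and PTPRT, the phosphatases of the same subfamily as PTPRM, had 68, 7 and 1 UMIs in all libraries together, against 556 for PTPRM. STAP2 had 45 UMIs against 3884 for STAP1, and AGAP2 and AGAP3 stood at 11.8 and 8.03 CPM against 160.2 for AGAP1. In the lectin cluster on chromosome 12, CLEC12B had 141 UMIs, CLEC7A 1 and CLEC1A 0, against 725 for CLEC12A. Of all 11 relatives, 7 were tested and 0 passed. Among all the lists, the gene that passed was IGLL1, the surrogate light chain used here as a B-precursor marker, at 0.12 ± 0.03 (log2, SE) for day 10 against day 4 and 0.14 ± 0.03 for day 13 against day 4 (limma-voom adjusted p = 0.0557 and 0.00175), and in the test over the 12 groups (0.0157).

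The genes whose levels over the 31 libraries most resembled each member were taken among 7910 genes with a mean of at least 20 CPM. PTPRM stood out by the size of its likeness: its closest gene was CD74, the invariant chain of MHC class II, with r = 0.82 (Spearman's rho 0.69). It was 0.77 without the 2 libraries farthest from the median in CD74, 0.81 after the group means were removed, and 0.79, 0.89 and 0.75 within days 4, 10 and 13. By vector it was 0.91 with EF1a/sh-CTRL (n = 9), 0.92 with SFFV/sh-CTRL (n = 7), 0.72 with EF1a/sh-XIAP (n = 7) and 0.32 with SFFV/sh-XIAP (n = 8), and the difference between vectors was not tested. CD74 was picked as the highest among the 7910 genes over these same libraries. The values from subsets of them are therefore a description and no independent support. PTPRM held 3 to 32 UMIs per library, and its coefficient of variation was 31.8% against 25.3% for pure counting. Much of its spread is thus counting error, and whether r reflects more than this and the choice of the highest gene was not tested. The EF1a/sh-CTRL library of day 4 with 3 PTPRM UMIs was also the lowest in CD74. CD74 itself ran from 555 to 757 CPM over all libraries and from 582 to 654 with SFFV/sh-XIAP. Whether this narrower range bears on r with that vector was not tested. The class II genes that CD74 serves, and their regulator CIITA, correlated with PTPRM at r between −0.06 and 0.22, and between −0.20 and 0.43 after the group means were removed (8 genes, chosen after CD74 was seen). CCNY, a cyclin, came next (r = 0.72).

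**Figure D4:**
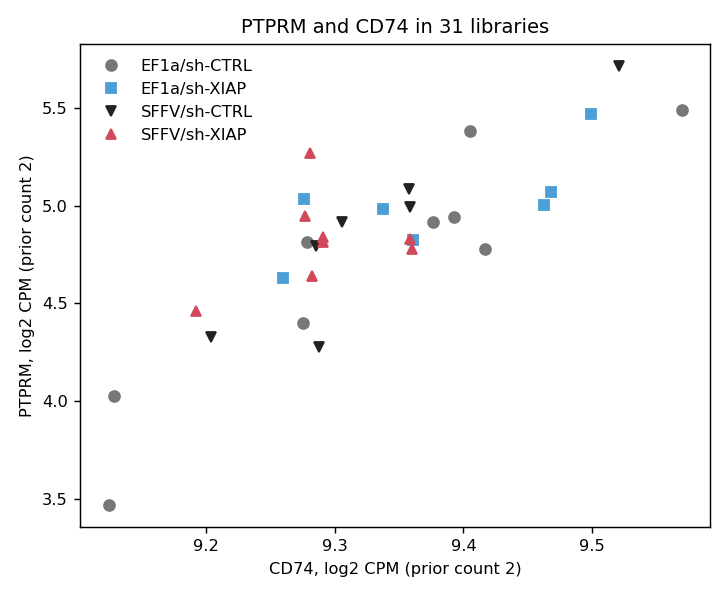
PTPRM against CD74, both as log2 CPM, with 1 point for each of the 31 libraries. Over all libraries r = 0.82. Within the 8 SFFV/sh-XIAP libraries r = 0.32. These span a narrower range of CD74 (582 to 654 CPM, against 555 to 757 over all). Its bearing on r was not tested. The lowest point on both axes is an EF1a/sh-CTRL library of day 4.

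The closest genes of the other members had r between 0.59 and 0.68. They were HAT1 (0.65) and CASP6 (0.63) for ERG, MFSD2B (0.68) and SLC35F2 (0.65) for STAP1, CEP135 (0.66) and C7orf43 (0.65) for AGAP1, STMN1 (0.67) and POLDIP2 (0.66) for CLEC12A, and MOB2 (0.65) and PFKP (0.59) for GPR155. Each was picked as highest from all 7910 correlations over the same libraries, with shared depth and counting error.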

How the data were processed

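For each gene and library the authors deposited the raw UMI count, in 1 table of 30667 Ensembl identifiers and 31 libraries. Reads had been aligned with STAR 2.6.0a per the submitters' processing notes, which name human and mouse genome builds; no source used here gives the counting program or annotation. Gene names and positions were added from GENCODE 29 (29928 identifiers matched), which may differ from the annotation used for counting. All 31 libraries were kept, although the study left out 5 as outliers without naming them, and vector, day and replicate number were taken from the labels. Where nothing says that replicates were separate cultures, p-values measure the spread between libraries, which may be technical.

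CPM is UMIs scaled to a library total of 1000000, with a prior count of 2 for log2 values. Genes above 1 CPM in at least 1/3 of the libraries of a fit were normalized by TMM (edgeR 4.0.16) and tested with limma-voom (limma 3.58.1, R 4.3.3), in models of vector and day, p-values being adjusted by Benjamini-Hochberg over all genes. The use of edgeR and limma, the filter and the threshold follow the study's methods, which do not state the scaling, the model or the adjustment. Libraries of days 10 and 13 (21), of day 4 (10) and of all days (31) were fitted apart. Where a count was 0, up to 3 counts were taken as possible, a limit that covers counting error only. The members' tests and the counts of genes called were recomputed with edgeR's quasi-likelihood test, DESeq2 1.42.0 (not for the test over the 12 groups), other scalings and filters, a replicate block, a depth covariate, thinned counts and libraries left out. The procedure was tested on simulated data.

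The 6 members and the gene lists were chosen with earlier results of these data known. Named were the 6 members and XIAP, in the other lists any gene that passed and the most counted one, and the 2 genes most correlated with each member; the other genes given by name were added after their values were seen.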

Additional observations from a re-analysis of the deposited data

Results flagged for a closer look

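In each gene and vector, the highest and lowest library was compared with its nearest neighbour (24 groups of 7 to 9 libraries). STAP1 in replicate 2 of EF1a/sh-CTRL at day 10 stood apart, at 238 CPM (125 UMIs) against 202 CPM in the next library, a gap of 0.529 of the group's range. Chance marks about 1 in 20 such groups.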

How the results depend on the processing

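With 0 of the 6 members called in every comparison, the alternatives could only add calls. Over 1806 recomputed values of the members, 1805 kept their side of the threshold and 0 reversed a call, since no member had a called direction; 129 of these uncalled values had another sign. The 1 exception was PTPRM for day 10 against day 4 without the filter on low counts, where 1 member was called (log2 change 0.34, limma-voom adjusted p = 0.208) together with 8868 of all 29756 genes tested, against 46 with the filter. With the replicate number as a replicate block, 0 members were called in any comparison; same-numbered libraries were no more alike than others (mean r −0.0018 over 66 pairs at days 10 and 13, against 0.0010 over 126, and 0.011 over 12 against −0.0052 over 25 at day 4), so the numbers were not taken as pairs. Leaving out each library in turn gave 0 members called throughout.

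Counts over all genes moved more. At days 10 and 13, strong KD called 14 genes (0 with DESeq2, 63 with only the 2 vectors fitted, 48 with edgeR), moderate KD 3 (0 with DESeq2 to 24 at day 10 alone), their difference 1 (0 with DESeq2 to 37 at day 10 alone) and the promoters 1 (0 with DESeq2 to 32 with only the 2 vectors fitted). Day 13 against day 10 called 8 (0 with DESeq2 to 68 without the filter), day 10 against day 4 as few as 15 at a threshold of 0.05, and day 13 against day 4 90 (27 with thinned counts to 129 with the depth covariate). At day 4, strong KD called 2 (0 with DESeq2 to 28 with only the 2 vectors fitted), moderate KD 9 (0 with edgeR to 29 without the filter) and the promoters 3 (0 with edgeR to 18 with the depth covariate). Any difference among the 12 groups called 98 (38 with thinned counts to 193 with edgeR). The cause was not tested. Depth limits CLEC12A and PTPRM, whose libraries hold as few as 4 and 3 UMIs.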
